A study of Mus musculus with 27 samples.

Results

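The response of mouse embryonic fibroblasts (MEFs) to transforming growth factor β1 (TGFβ1) was read in cells that carried none of the 5 cardiac transcription factors used elsewhere in the series (0TF). The 3 0TF + TGFβ1 arrays were set against the 3 0TF + DMSO arrays, which are 6 of the 27 arrays of the series, and all 19938 genes with an unambiguous probe set entered the comparison. The series asked how TGFβ signaling bears on the conversion of fibroblasts into cardiomyocyte-like cells by HNGMT (Hand2, Nkx2-5, Gata4, Mef2c and Tbx5), and this pair of groups gives the answer of the starting cells to the ligand alone. In the 0TF + TGFβ1 group, MEFs of mid-gestation embryos of mixed genetic background were kept with TGFβ1 at 2 ng/mL. In the 0TF + DMSO group, MEFs of the same kind received DMSO, the vehicle of the small molecules, and no TGFβ1. The molecules were added a day before doxycycline and reprogramming medium, and cells were collected on Day 3 in triplicate from independent biological replicates. The notes for MEF cultures describe lentiviruses for rtTA, the activator that doxycycline needs, and for a calcium reporter driven by a troponin T promoter in both groups. The labels call the 0TF cells treated with empty vector in some fields and untreated with factors in others, and the collection notes speak of non-transduced MEFs, so the virus load of these cultures is not settled. Whether the TGFβ1 cultures also held DMSO is not given in the sources used here. MEFs are a mixed primary population and not a line, and in such bulk samples fewer cells of a type and less RNA per cell cannot be told apart.

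TGFβ1 is secreted in a latent complex, is released by integrins and proteases, and binds the type II receptor Tgfbr2, which recruits and activates the type I receptor Tgfbr1. The activated kinase phosphorylates Smad2 and Smad3, which enter the nucleus with Smad4 and act together with factors such as AP-1. Among their targets are inhibitors of the pathway itself, and in fibroblasts the ligand is best known for driving the contractile myofibroblast state, for remodelling the extracellular matrix and for slowing proliferation of many cell types. SB431542 (SB), given to other 0TF cultures of the series at 0.5 µM, blocks the kinase of Tgfbr1 and its nearest relatives.

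At the fold used here, more genes fell than rose. With TGFβ1, 839 genes were higher and 1235 were lower than with DMSO at an adjusted p under 0.05 and a fold of at least 1.5 (limma with Benjamini-Hochberg adjustment over all genes), which is 4.21% and 6.19% of all genes tested and 10.4% together. Such genes are called higher or lower here, or said to have risen or fallen, and a level is the deposited log2 signal of a culture. The excess of lower genes grew with the size of the change. At a fold of 2 or more, 236 genes were higher and 609 were lower (1.18% and 3.05%), and at a fold of 4 or more, 38 were higher and 177 were lower (0.191% and 0.888%). With no fold threshold the order turned, with 5488 genes higher and 3862 lower (27.5% and 19.4%). The median log2 fold change of all genes was 0.05. The 3 TGFβ1 cultures did not overlap with the 3 DMSO cultures for 35.6% of genes in the upward and 22.1% in the downward direction. Cultures of a group agreed closely, with a correlation across genes of 0.9987 to 0.999 within a group and 0.9713 to 0.9751 between groups, as a description in which genes are not independent. The median SD of a gene was 0.0464 log2 units among the TGFβ1 cultures and 0.0534 among the DMSO cultures. Calls close to the threshold, a log2 fold change of 0.585, rested on single cultures for Des, Itgb1, Mmp12, P4ha1, Runx1, Tnnt2 and Ccl5, and Dab2, Irf1 and Top2a were not called when all probe sets of a gene were averaged. Snai2, Notch1, Aspn and Tnnt2 were not called when each array's median was subtracted, nor Ccl5, Itgb1, P4ha1, Pgk1 and Tnnt2 after quantile normalization.

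**Figure D1:**
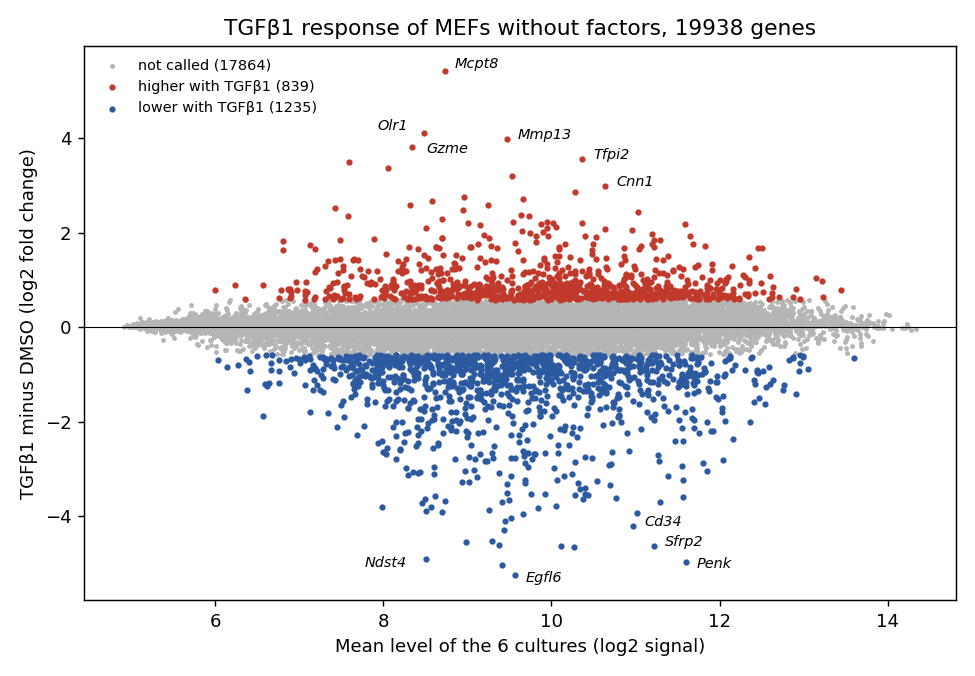
Log2 fold change (TGFβ1 minus DMSO, vertical axis) of each of the 19938 genes against its mean level over the 6 cultures (log2 signal, horizontal axis), with called genes in red (839 higher) and blue (1235 lower). The extremes are Mcpt8 at 5.43 and Egfl6 at -5.25, and at a fold of 4 or more 177 genes lie below 0 and 38 above it.

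The cells bore fibroblast markers in both groups. The mean level of 10 fibroblast markers (Vim, Thy1, Col1a1 and others) was 12.42 to 12.46 in TGFβ1 cultures and 12.66 to 12.69 in DMSO cultures. Of these markers only Pdgfra, the PDGF receptor α, was called (-0.86). With no fold threshold, 8 of the 10 were lower and 1 higher. None of the 6 leukocyte, 6 epithelial, 6 cardiomyocyte, 5 adipocyte and 4 mesothelial markers was called, and the pan-leukocyte gene Ptprc stood at 6.73, 6.81 and 6.81 in the TGFβ1 cultures, against 6.72, 6.79 and 6.66 in the DMSO cultures. Of the other markers, the endothelial receptor Tek fell (-2.44) while Pecam1 and Cdh5 did not change beyond the threshold (0.12 and -0.08), the neuronal tubulin Tubb3 rose (1.08) and Map2 fell (-1.17), the cartilage regulator Sox9 fell (-1.12), and Acta1, an actin of skeletal muscle, rose (2.01) beside Myod1 and Myog, which were not called (0.09 and 0.12). Of 11 common reference genes, Hprt (0.79) and Pgk1 (0.63) rose, and Actb (0.06), Tbp (-0.02) and Ppia (0.11) were among the 9 not called.

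The largest increase of all was that of Mcpt8, a serine protease known from basophils. Its level was 11.46, 11.42 and 11.48 in the TGFβ1 cultures, against 5.94, 6.08 and 6.06 in the DMSO cultures (log2 fold change 5.43, SE 0.07, adjusted p = 4.83e-19). The deposited values carry no call of signal above background, so a fold change against a low signal, as in this gene, may be a lower bound. All 3 TGFβ1 cultures lay together, more than 5 log2 units above all DMSO cultures. Granzyme E (Gzme), known from cytotoxic lymphocytes and from the pregnant uterus, stood at 10.51, 10.29 and 9.93 in the TGFβ1 cultures, against 6.41, 6.39 and 6.48 in the DMSO cultures (log2 fold change 3.81, SE 0.13, adjusted p = 6.87e-14). Granzyme D (Gzmd) also rose (7.69, 7.78 and 7.40 in the TGFβ1 cultures, against 5.94, 6.00 and 6.01 in the DMSO cultures, log2 fold change 1.64). These 3 genes are close neighbours in a cluster of 15 mast cell protease and granzyme genes on chromosome 14 (RefSeq, GRCm38.p6), and the cluster did not move as a whole. Of its 13 genes measured, the other 10 had log2 fold changes between 0.03 and 0.46 and none was called, among them Ctsg (0.08), which lies between Mcpt8 and Gzme, and Gzmb (0.04). Granzymes D, E and G are near-identical in sequence, so how the signal of Gzmd and Gzme divides between them is uncertain. No leukocyte marker was called beside these protease genes, and the mean of the 6 markers was 7.27 to 7.30 in TGFβ1 cultures and 7.10 to 7.30 in DMSO cultures.

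The other genes at the top of the list were of several kinds. Olr1, a scavenger receptor for oxidised lipoprotein, was at 10.62, 10.62 and 10.38 in the TGFβ1 cultures, against 6.43, 6.54 and 6.34 in the DMSO cultures (log2 fold change 4.11, SE 0.08, adjusted p = 2.42e-17). Tfpi2, a secreted inhibitor of serine proteases, was at 12.30, 12.12 and 12.03 in the TGFβ1 cultures, against 8.57, 8.64 and 8.53 in the DMSO cultures (log2 fold change 3.57, SE 0.07, adjusted p = 6.87e-17). Kcnmb1, the β subunit that tunes the calcium-activated potassium channel of smooth muscle, was at 10.03, 9.69 and 9.48 in the TGFβ1 cultures, against 6.41, 6.38 and 6.31 in the DMSO cultures (log2 fold change 3.36, SE 0.09, adjusted p = 3.31e-15). In these genes the groups were far apart and only the TGFβ1 cultures of Kcnmb1 spread by as much as 0.5 log2 units. Its pore-forming partner Kcnma1 rose as well (1.27), as did Scn7a, a sodium channel family member (3.21), and the potassium channel Kcnj15 (2.16). The milk protein κ-casein (Csn3, 3.50), the platelet chemokine Ppbp (2.87), the mechanosensitive repeat protein Ankrd1 (2.76), the methyltransferase Etfbkmt (2.67) and the orphan receptor Gpr149 (2.60) complete the 15 highest together with Cnn1, Mmp3, Mmp10 and Mmp13, which are described with their groups.

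**Figure D2:**
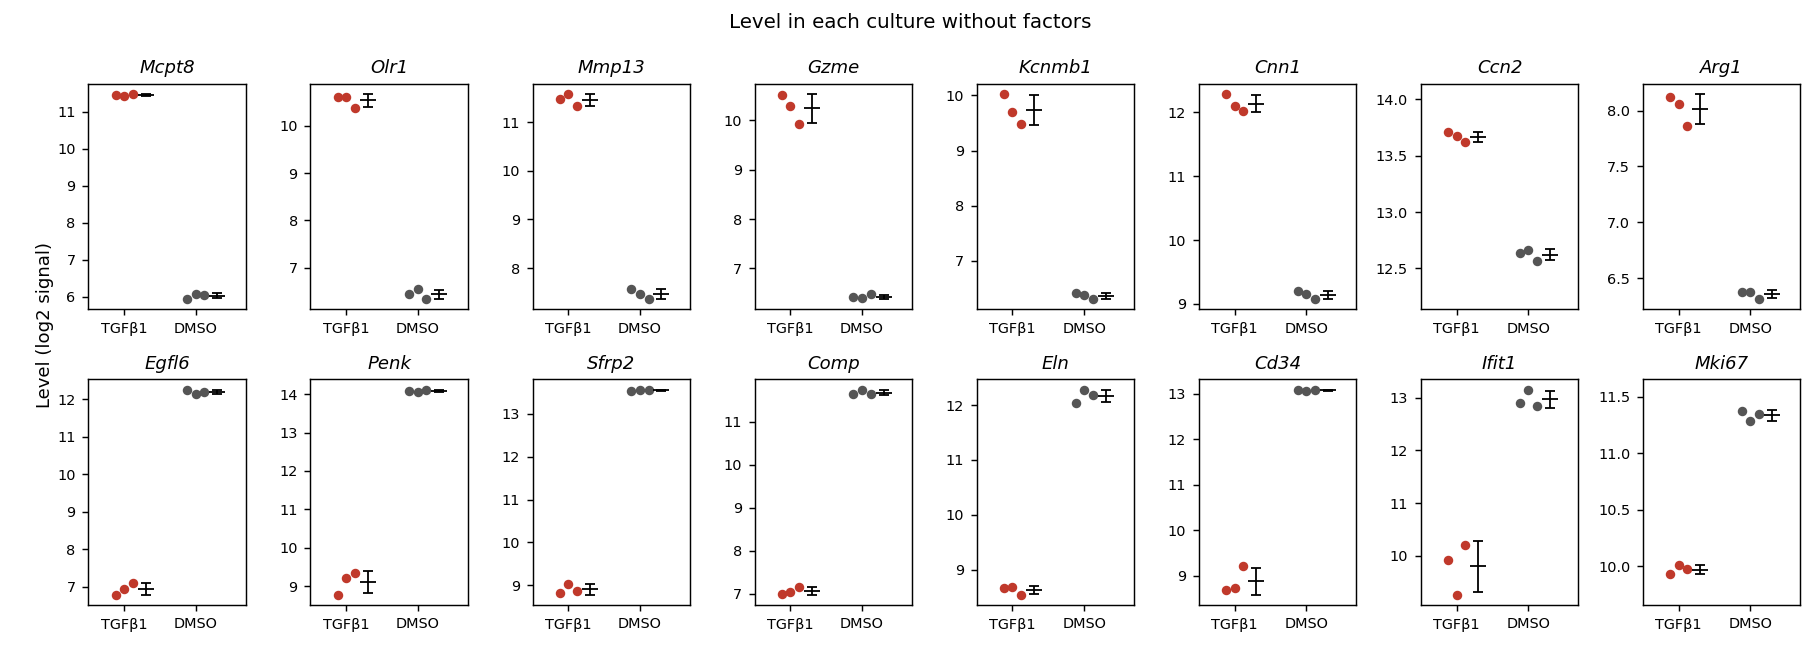
Level in each culture (log2 signal) of 16 genes named in the text, TGFβ1 cultures in red and DMSO cultures in grey, with the mean and SD of 3 cultures beside the points. In no panel do the groups overlap, which was required of those genes that are among the 15 highest and 15 lowest. Ifit1 shows the widest spread among TGFβ1 cultures (9.27 to 10.21).

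At the other end stood the 15 genes that fell most. Egfl6, a basement membrane protein with EGF repeats, was at 6.79, 6.94 and 7.09 in the TGFβ1 cultures, against 12.25, 12.13 and 12.19 in the DMSO cultures (log2 fold change -5.25, SE 0.08, adjusted p = 3.1e-18). Penk, the precursor of enkephalin peptides, was at 8.78, 9.21 and 9.34 in the TGFβ1 cultures, against 14.09, 14.06 and 14.12 in the DMSO cultures (log2 fold change -4.98, SE 0.11, adjusted p = 3.68e-16). Sfrp2, a secreted Wnt modulator, was at 8.81, 9.04 and 8.86 in the TGFβ1 cultures, against 13.53, 13.56 and 13.54 in the DMSO cultures (log2 fold change -4.64, SE 0.07, adjusted p = 1.6e-18). No TGFβ1 culture of these genes came within 4 log2 units of a DMSO culture, and the TGFβ1 cultures varied more among themselves than the DMSO cultures did. Cd34, a sialomucin that marks many stromal progenitors, was at 8.69, 8.72 and 9.21 in the TGFβ1 cultures, against 13.09, 13.06 and 13.08 in the DMSO cultures (log2 fold change -4.20, SE 0.09, adjusted p = 1.75e-16). Mme, the peptidase neprilysin, was at 7.76, 7.91 and 8.17 in the TGFβ1 cultures, against 12.63, 12.57 and 12.61 in the DMSO cultures (log2 fold change -4.66, SE 0.09, adjusted p = 2.42e-17). Ndst4, which sulfates heparan chains, was at 6.12, 5.87 and 6.14 in the TGFβ1 cultures, against 10.96, 10.88 and 11.05 in the DMSO cultures (log2 fold change -4.92, SE 0.07, adjusted p = 2.69e-18). The 15 highest and 15 lowest genes were taken only from genes whose groups did not overlap, so that separation is part of the choice. Among the 15 lowest also stood Lrrtm3 (-4.64), the angiopoietin-like Angptl1 (-4.55), the lipopolysaccharide-binding protein Lbp (-4.29), Olfml1 (-4.10), the glycosyltransferase Galnt9 (-4.03), the cartilage matrix protein Comp (-4.62), the Wnt agonist Rspo2 (-3.96) and 2 genes of the immunity-related GTPase family, Iigp1 (-4.53) and Gm4951 (-5.03).

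Within the pathway itself, more of the ligands than of the receptors were called. Of 15 ligands and latency proteins, 5 were higher and 2 lower. Lrrc32, the membrane protein that tethers latent TGFβ to the cell surface, was at 12.17, 12.25 and 12.23 in the TGFβ1 cultures, against 10.37, 10.38 and 10.35 in the DMSO cultures (log2 fold change 1.85, SE 0.05, adjusted p = 6.15e-15). Tgfb1 itself was higher at 11.14, 11.17 and 11.11 in the TGFβ1 cultures, against 10.30, 10.25 and 10.22 in the DMSO cultures (log2 fold change 0.88, SE 0.03, adjusted p = 5.57e-13), and Tgfb2 was lower at 10.62, 10.63 and 10.63 in the TGFβ1 cultures, against 11.76, 11.58 and 11.58 in the DMSO cultures (log2 fold change -1.01, SE 0.04, adjusted p = 2.74e-12). The 2 isoforms moved in opposite directions, and Tgfb3 was not called (0.32). The activin subunits Inhba (1.02) and Inhbb (1.02) and Gdf11 (0.88) rose and the latency protein Ltbp4 fell (-0.74). Of 12 receptors and coreceptors, the coreceptor Tgfbr3 fell (-0.94), a share of 8.33% near the 6.19% of all genes that were lower. Tgfbr1 (-0.25), Tgfbr2 (-0.43) and 9 others were not called. With no fold threshold, 8 of these 12 were lower and 1 higher.

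Among 25 Smads, Ski repressors and feedback genes, 3 were higher and 5 lower. The Smad repressor Skil (log2 fold change 0.70, SE 0.07, adjusted p = 1.47e-07), the corepressor Tgif1 (0.68) and Pmepa1, which takes Smads and receptors out of action (0.66), rose. Smad7, the inhibitory Smad most closely tied to TGFβ, had a log2 fold change of 0.53 and stayed under the fold threshold (adjusted p = 9.5e-09). The BMP-related Smad6 (-0.94) and Smad9 (-0.98), the repressor Ski (-0.66), the adaptor Dab2 (-1.13) and Vasn, which binds TGFβ (-1.25), fell. The signal carriers Smad2 (0.03), Smad3 (-0.17) and Smad4 (-0.11) were not called.

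Of 32 genes known as direct targets in other cells, 13 were higher and 2 lower, with a median log2 fold change of 0.43 against 0.05 over all genes. Ptgs2, the inducible cyclooxygenase, was at 13.36, 13.30 and 13.21 in the TGFβ1 cultures, against 11.68, 11.52 and 11.65 in the DMSO cultures (log2 fold change 1.67, SE 0.07, adjusted p = 4.97e-13). Ccn2, connective tissue growth factor, was at 13.71, 13.67 and 13.62 in the TGFβ1 cultures, against 12.64, 12.67 and 12.57 in the DMSO cultures (log2 fold change 1.05, SE 0.04, adjusted p = 1.46e-12). Sphk1, a sphingosine kinase, was at 10.75, 10.77 and 10.76 in the TGFβ1 cultures, against 9.42, 9.39 and 9.32 in the DMSO cultures (log2 fold change 1.39, SE 0.04, adjusted p = 1.81e-14). Each of the 3 was higher in every TGFβ1 culture than in any DMSO culture. The CDK inhibitor Cdkn2b (1.06), the hydrogen peroxide source Nox4 (0.93), Angptl4 (1.00), Lif (0.89) and the vasoconstrictor endothelin 1 (Edn1, 0.77) rose too. Tgfbi, a matrix protein named for its induction by TGFβ, fell, at 10.93, 11.25 and 11.47 in the TGFβ1 cultures, against 12.73, 12.69 and 12.67 in the DMSO cultures (log2 fold change -1.48, SE 0.09, adjusted p = 1.2e-10), and its TGFβ1 cultures spread over 0.5 log2 units. Snai2 also fell (-0.63), and Snai1 (-0.07), Junb (0.44) and fibronectin (Fn1, 0.27) were not called.

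Contractile genes of the myofibroblast rose more often than they fell. Of 37 smooth muscle and myofibroblast genes, 10 were higher and 5 lower (median 0.40). Cnn1, calponin of smooth muscle, was at 12.29, 12.10 and 12.02 in the TGFβ1 cultures, against 9.20, 9.16 and 9.08 in the DMSO cultures (log2 fold change 2.99, SE 0.07, adjusted p = 2.75e-16), the largest change of the list. Actg2, smooth muscle γ-actin, was at 11.15, 10.97 and 10.86 in the TGFβ1 cultures, against 8.96, 8.92 and 8.80 in the DMSO cultures (log2 fold change 2.10, SE 0.11, adjusted p = 1.68e-11). Tagln, the actin-binding SM22α, was at 13.11, 13.14 and 13.01 in the TGFβ1 cultures, against 11.75, 11.53 and 11.54 in the DMSO cultures (log2 fold change 1.48, SE 0.08, adjusted p = 9.6e-11). Each of these genes is a marker of smooth muscle, and none had cultures that overlapped. Acta2, smooth muscle α-actin and the usual mark of myofibroblasts, was at 13.93, 13.80 and 13.77 in the TGFβ1 cultures, against 12.98, 13.09 and 13.08 in the DMSO cultures (log2 fold change 0.78, SE 0.08, adjusted p = 1.1e-07). Its groups did not overlap either, and its fold of 1.72 was the least of the 4. Myh11 (0.78), Myl9 (0.73), Tpm2 (0.72), Pdlim7 (0.95), Fhl1 (0.94) and Des (0.62) also rose. The kinase that drives smooth muscle contraction, Mylk, fell (-1.33), as did smoothelin (Smtn, -0.83), Csrp2 (-0.67), the α8 integrin Itga8 (-1.33) and Nrep (-0.94). The transcription factors of the program, Srf (0.10) and Myocd (0.10), were not called. Of 21 integrin chains, Itga4 (1.69), the laminin-binding Itga7 (1.62) and Itgb1 (0.59) rose, and Itga8 and the integrin-like Itgbl1 (-1.15) fell.

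Genes of elastic fibers and of the proteoglycans on collagen fibrils fell and none of them rose. All 10 called genes of the 18 for elastic fibers and microfibrils fell (55.6% against 6.19% of all genes). Eln, elastin itself, was at 8.66, 8.69 and 8.54 in the TGFβ1 cultures, against 12.04, 12.27 and 12.19 in the DMSO cultures (log2 fold change -3.54, SE 0.07, adjusted p = 5.57e-17), an 11.6-fold difference. Adamtsl4, which helps fibrillin microfibrils form, was at 8.67, 8.77 and 8.83 in the TGFβ1 cultures, against 10.85, 10.80 and 10.79 in the DMSO cultures, and the microfibril protein Mfap4 was at 10.63, 10.76 and 10.74 in the TGFβ1 cultures, against 12.65, 12.63 and 12.63 in the DMSO cultures. The groups were apart by more than 1.5 log2 units in each of these genes. Mfap2 (-1.41), the fibulins Fbln1 (-0.75) and Fbln5 (-0.65) and fibrillin 2 (Fbn2, -0.90) fell as well, while Fbln2 (0.50) and Mfap5 (0.50) were not called. Of 15 small leucine-rich proteoglycans, which bind collagen fibrils and govern their width, 10 fell and none rose (median -1.23). Fmod, fibromodulin, was at 8.06, 8.12 and 8.29 in the TGFβ1 cultures, against 11.73, 11.75 and 11.59 in the DMSO cultures (log2 fold change -3.53, SE 0.06, adjusted p = 1.47e-17). Epyc was at 6.61, 6.70 and 6.36 in the TGFβ1 cultures, against 10.54, 10.35 and 10.48 in the DMSO cultures (log2 fold change -3.90, SE 0.08, adjusted p = 1.45e-16). Prelp was at 8.37, 8.80 and 8.80 in the TGFβ1 cultures, against 12.23, 12.21 and 12.19 in the DMSO cultures (log2 fold change -3.55, SE 0.08, adjusted p = 5.39e-16). Kera (-3.07), Ecm2 (-2.69), Lum (-2.36), Podn (-1.40), Omd (-1.23), Dcn (-0.66) and Aspn (-0.63) make up the rest, and biglycan (Bgn, -0.02) was not called.

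A smaller share of the collagens was called than of the elastic fiber and small proteoglycan genes. Of 44 chains, 2 were higher and 8 lower (4.55% and 18.2%, against 4.21% and 6.19% of all genes). The main chains of type I collagen, Col1a1 (-0.18) and Col1a2 (-0.27), were not called, nor were Col5a1 (0.03) and Col4a1 (0.54). The 3 chains that build type VI collagen fell together, Col6a1 (-1.04), Col6a2 (-1.27) and Col6a3 (-1.80), and the fibril-associated Col14a1 was at 8.33, 8.18 and 8.20 in the TGFβ1 cultures, against 11.02, 11.22 and 11.14 in the DMSO cultures (log2 fold change -2.89, SE 0.06, adjusted p = 5.35e-17). Col8a1 (0.81) and Col10a1, the collagen of hypertrophic cartilage (1.64), rose. Of 26 genes for collagen processing and crosslinking, the transglutaminase Tgm2 (1.26), Loxl3 (0.68) and P4ha1 (0.61) rose, Adamts3, which trims procollagen, fell (-2.86) with P3h2 (-1.04) and P4ha3 (-0.93), and Lox was not called (-0.03). Of 29 matricellular proteins, 3 were higher and 13 lower. Tnc, tenascin C, was at 13.74, 13.69 and 13.67 in the TGFβ1 cultures, against 12.74, 12.68 and 12.76 in the DMSO cultures (log2 fold change 0.97, SE 0.04, adjusted p = 4.5e-12), whereas Comp was at 6.99, 7.04 and 7.16 in the TGFβ1 cultures, against 11.65, 11.75 and 11.64 in the DMSO cultures (log2 fold change -4.62, SE 0.05, adjusted p = 1.98e-19). Thbs4 (-2.23), Ccn3 (-2.01) and Spon2 (-1.77) fell and Ccn4 rose (0.71), and Thbs1 (0.26) and Postn (-0.32) were not called. Of 34 hyaluronan and proteoglycan genes, 6 were higher and 5 lower, with Has2, a hyaluronan synthase (1.43), the lubricin gene Prg4 (2.38) and the sulfotransferase Chst11 (2.12) up, and the link protein Hapln1 (-3.59) and glypican 3 (Gpc3, -2.61) down.

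**Figure D3:**
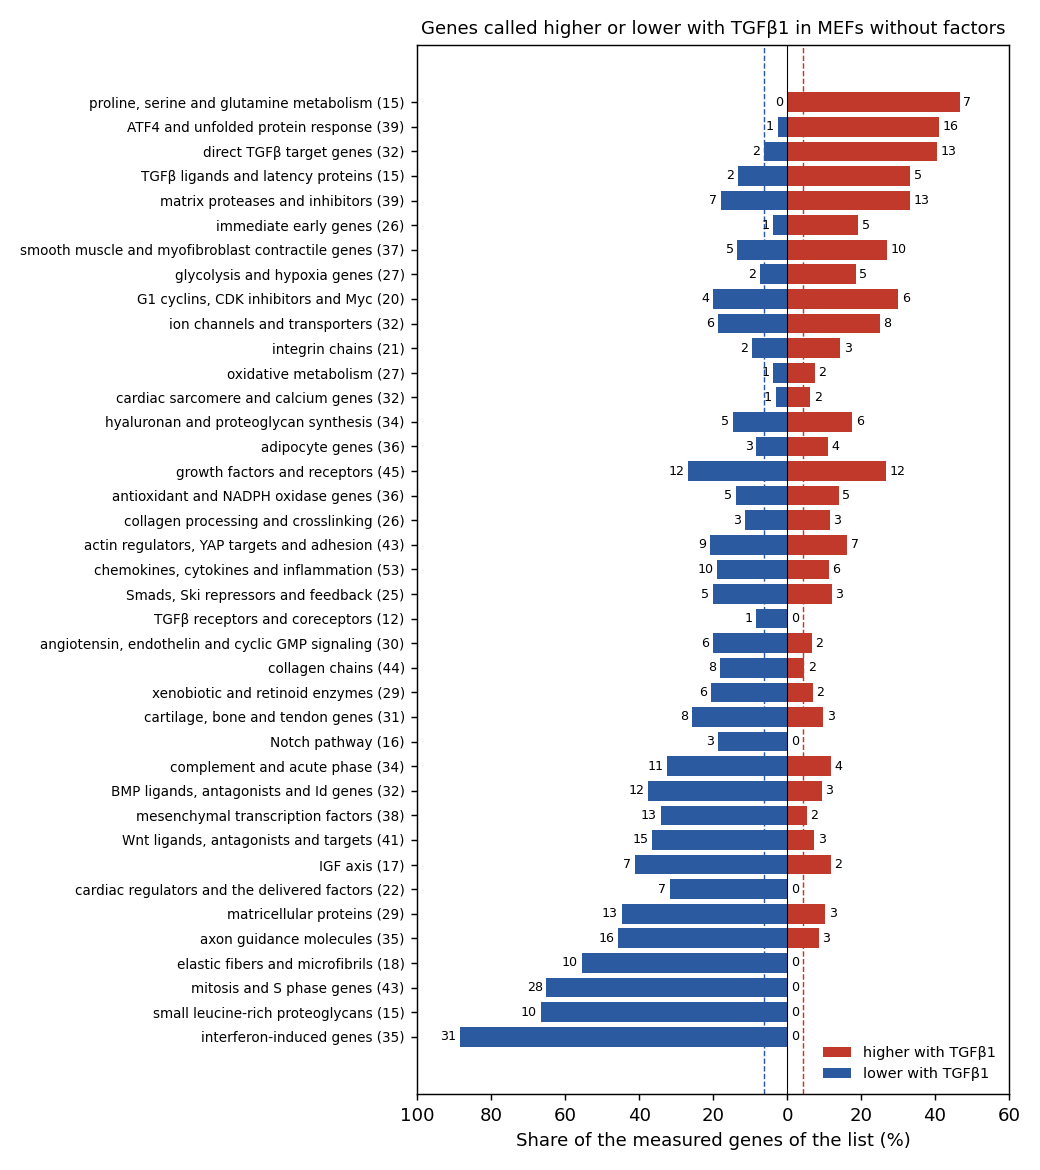
Share of the measured members of each gene list (number measured in parentheses) that was called higher (red, right) or lower (blue, left) with TGFβ1, with the count at the end of each bar. Dashed lines mark 4.21% and 6.19%, the shares of all genes, and the interferon-induced genes reach 88.6% lower.

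Of 39 matrix proteases and inhibitors, 13 were higher and 7 lower, and with no fold threshold 15 were higher and 17 lower (median log2 fold change -0.01). The matrix metalloproteinases that rose most lie in a cluster of 10 genes on chromosome 9, of which 5 were called higher and none lower. Mmp13, a collagenase, was at 11.48, 11.57 and 11.33 in the TGFβ1 cultures, against 7.57, 7.47 and 7.37 in the DMSO cultures (log2 fold change 3.99, SE 0.12, adjusted p = 1.06e-14). Mmp3, stromelysin 1, was at 10.83, 11.10 and 11.13 in the TGFβ1 cultures, against 8.20, 8.26 and 8.46 in the DMSO cultures (log2 fold change 2.72, SE 0.12, adjusted p = 1.78e-12). Mmp10, stromelysin 2, was at 9.62, 9.69 and 9.50 in the TGFβ1 cultures, against 7.10, 6.91 and 7.05 in the DMSO cultures (log2 fold change 2.59, SE 0.08, adjusted p = 2.06e-14). In all 3 genes every TGFβ1 culture was more than 2 log2 units above every DMSO culture. Mmp1b (0.78) and Mmp12 (0.61), which lie between Mmp13 and Mmp3, rose less, and Mmp1a (0.29), Mmp8 (0.15), Mmp20 (0.14), Mmp27 (0.03) and Mmp7 (0.00) were not called. The promoters of the 3 genes that rose most are shown because they rose together and share a motif. The choice thus favoured the motif, and whether the other genes of the cluster hold it is not given here. Each is the RefSeq sequence from 250 bases before to 50 bases after the start of the gene in GRCm38.p6, in lower case with matches to TGANTCA, the letters bound by AP-1, in capitals.
Mmp13 (chr9:7272264-7272563, plus strand): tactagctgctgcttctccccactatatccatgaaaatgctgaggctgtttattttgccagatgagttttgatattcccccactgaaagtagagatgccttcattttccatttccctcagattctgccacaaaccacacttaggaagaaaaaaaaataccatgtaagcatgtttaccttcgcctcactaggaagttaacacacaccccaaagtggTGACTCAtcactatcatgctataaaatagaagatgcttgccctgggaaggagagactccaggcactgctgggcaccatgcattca
Mmp3 (chr9:7445572-7445871, plus strand): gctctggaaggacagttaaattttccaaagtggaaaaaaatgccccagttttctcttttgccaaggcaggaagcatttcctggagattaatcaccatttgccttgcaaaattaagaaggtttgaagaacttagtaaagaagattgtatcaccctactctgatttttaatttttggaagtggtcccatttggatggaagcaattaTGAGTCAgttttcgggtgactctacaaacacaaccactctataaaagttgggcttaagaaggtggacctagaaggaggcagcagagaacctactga
Mmp10 (chr9:7502092-7502391, plus strand): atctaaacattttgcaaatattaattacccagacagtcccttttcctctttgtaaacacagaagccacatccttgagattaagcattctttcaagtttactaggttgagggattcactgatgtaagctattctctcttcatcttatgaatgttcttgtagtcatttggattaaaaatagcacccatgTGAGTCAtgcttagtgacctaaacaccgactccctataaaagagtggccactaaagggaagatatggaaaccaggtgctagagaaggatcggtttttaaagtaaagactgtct
Each of the 3 windows held 1 match, and counted from the start of the gene it began at base -35 in Mmp13, -46 in Mmp3 and -63 in Mmp10. Searched on both strands, TGANTCA was present in 8.08% of the 15614 promoters of genes tested and in 10.5% of the 655 promoters of genes called higher. Outside the cluster, the plasminogen activators Plau (1.20) and Plat (1.09), the receptor Plaur (0.78) and the inhibitor Timp1 (0.64) rose. The inhibitors Timp3 (-0.77), Timp4 (-0.88) and Reck (-1.01) fell, as did Adamts9 (-1.79) and Adamts15 (-1.29), and the gelatinase Mmp2 (-0.40) and the membrane protease Mmp14 (-0.36) were not called.

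Genes of the related BMP and Wnt pathways fell more often than they rose. Of 32 BMP ligands, antagonists and Id genes, 12 were lower and 3 higher. Bmp2 was at 6.92, 7.33 and 7.30 in the TGFβ1 cultures, against 9.73, 9.58 and 9.63 in the DMSO cultures (log2 fold change -2.46, SE 0.11, adjusted p = 2.04e-12). Id2, an inhibitor of helix-loop-helix factors, was at 10.63, 10.59 and 10.70 in the TGFβ1 cultures, against 12.84, 12.83 and 12.97 in the DMSO cultures (log2 fold change -2.24, SE 0.05, adjusted p = 4.04e-16). The groups were separate by at least 2 log2 units in both. Id1 (-1.04) and Id4 (-1.21) fell and Id3 was not called (-0.40). The antagonists split, with Chrdl1 (-2.74) and Fst (-1.03) lower and Fstl3 (1.46) and Bmper (1.70) higher. Of 41 Wnt ligands, receptors, antagonists and targets, 15 were lower and 3 higher. Beside Sfrp2, the antagonist Sfrp1 was at 10.79, 11.25 and 11.19 in the TGFβ1 cultures, against 13.02, 13.12 and 13.02 in the DMSO cultures (log2 fold change -1.98, SE 0.09, adjusted p = 3.95e-12). Lgr5, a receptor for R-spondins, averaged 8.16 ± 0.26 in the TGFβ1 cultures and 11.95 ± 0.05 in the DMSO cultures (SD, n = 3 each; log2 fold change -3.79, SE 0.10, adjusted p = 2.53e-15), and its ligand Rspo2 was at 7.40, 7.62 and 8.03 in the TGFβ1 cultures, against 11.67, 11.65 and 11.61 in the DMSO cultures. Both had TGFβ1 cultures that varied more than the DMSO cultures and stayed over 3 log2 units below them. Fzd4 (-2.07), Wnt2 (-1.38) and Wnt16 (-1.70) fell, Wnt9a (1.27) and Frzb (1.12) rose, and the transcriptional target Axin2 was not called (-0.18). Of 16 Notch pathway genes, Notch1 (-0.63), Hey2 (-1.02) and Lfng (-1.00) fell and none rose.

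The interferon-induced genes had the highest share of called members among the gene lists. The lists were chosen with earlier results of these data known, so the shares of this and the other lists are a description. Of 35 measured, 31 were lower and none higher (88.6% against 6.19% of all genes), with a median log2 fold change of -2.33. Ifit1 was at 9.93, 9.27 and 10.21 in the TGFβ1 cultures, against 12.90, 13.15 and 12.85 in the DMSO cultures (log2 fold change -3.16, SE 0.37, adjusted p = 1.04e-06). Mx2 was at 6.54, 6.62 and 6.66 in the TGFβ1 cultures, against 10.27, 10.63 and 10.06 in the DMSO cultures (log2 fold change -3.71, SE 0.27, adjusted p = 1.94e-09). Oas2 was at 7.44, 7.30 and 7.40 in the TGFβ1 cultures, against 10.67, 10.62 and 10.69 in the DMSO cultures (log2 fold change -3.27, SE 0.09, adjusted p = 5.75e-15). These genes encode antiviral proteins, and no TGFβ1 culture of them reached a DMSO culture. The mean of the 35 genes was 8.93, 8.75 and 9.15 in the TGFβ1 cultures and 11.03, 11.33 and 11.01 in the DMSO cultures, so that no culture fell between the groups. The median SD of these genes was 0.18 among TGFβ1 and 0.17 among DMSO cultures, more than the 0.0464 and 0.0534 of all genes. The transcription factors Irf7 (-3.15), Irf9 (-1.18), Irf1 (-0.75) and Stat2 (-1.91), the RNA sensors Ifih1 (-2.33) and Ddx58 (-0.98), the guanylate-binding Gbp3 (-3.51), Usp18 (-2.83), Slfn5 (-3.88) and Rsad2 (-2.39) were all lower. The genes for antigen processing Psmb8 (-1.99), Psmb9 (-1.57) and Tap1 (-1.22) fell with them. Slfn2 (0.04), Oas3 (-0.31), Isg20 (-0.25) and B2m (-0.22) were not called.

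Promoters of 2 of the interferon genes are printed because they share a motif with other members of the group, again from RefSeq in GRCm38.p6, with matches to the core of the interferon-stimulated response element in capitals. The core was taken as GAAA, any 2 bases and GAAA, was searched on both strands, and reads TTTC, any 2 bases and TTTC where it lies on the reverse strand, as here.
Ifit1 (chr19:34640639-34640938, plus strand): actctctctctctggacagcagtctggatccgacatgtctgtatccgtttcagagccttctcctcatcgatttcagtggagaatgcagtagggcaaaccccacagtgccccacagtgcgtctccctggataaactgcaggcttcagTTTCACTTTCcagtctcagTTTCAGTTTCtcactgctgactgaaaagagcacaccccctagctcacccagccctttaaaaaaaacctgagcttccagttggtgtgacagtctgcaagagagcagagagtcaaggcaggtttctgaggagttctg
Ifit3 (chr19:34583279-34583578, plus strand): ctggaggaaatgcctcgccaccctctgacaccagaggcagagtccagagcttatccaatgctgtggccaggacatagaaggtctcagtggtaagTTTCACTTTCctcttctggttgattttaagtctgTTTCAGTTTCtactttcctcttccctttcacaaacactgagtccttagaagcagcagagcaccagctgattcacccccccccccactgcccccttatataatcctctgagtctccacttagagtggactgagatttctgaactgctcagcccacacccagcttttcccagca
Each window held 2 matches, which began at bases -104 and -85 in Ifit1 and at -156 and -122 in Ifit3, counted from the start of the gene. Of the 31 interferon genes that fell, 25 had a promoter in the table and 13 of these held the motif (52.0%). It was present in 3.89% of all 15614 promoters and in 3.82% of those of genes called higher. Among the 921 promoters of genes called lower, which include these 25, the share was 8.58%. The list was made of interferon-induced genes, so its choice favoured a high share of this motif. Ifit3 itself was at 10.70, 9.63 and 10.77 in the TGFβ1 cultures, against 13.16, 13.35 and 13.22 in the DMSO cultures (log2 fold change -2.88, SE 0.32, adjusted p = 5.58e-07).

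Complement and chemokine genes moved in both directions. Of 34 complement and acute phase genes, 11 were lower and 4 higher. C1s1, a protease of the classical pathway, was at 8.22, 8.49 and 8.63 in the TGFβ1 cultures, against 11.04, 11.16 and 11.22 in the DMSO cultures (log2 fold change -2.70, SE 0.16, adjusted p = 1.37e-10), and C1ra (-2.68), the C1 inhibitor Serping1 (-2.42), C4b (-2.00) and factor B (Cfb, -1.86) fell with it. Ceruloplasmin (Cp), the copper-carrying ferroxidase, was at 10.62, 10.66 and 10.71 in the TGFβ1 cultures, against 8.50, 8.38 and 8.38 in the DMSO cultures (log2 fold change 2.24, SE 0.05, adjusted p = 6.62e-16). The chaperone clusterin fell (Clu, -1.86) and the lectin-pathway protease Masp1 rose (1.11). Of 53 chemokines, cytokines and inflammatory genes, 6 were higher and 10 lower. Il6 was at 7.62, 7.78 and 7.75 in the TGFβ1 cultures, against 5.90, 5.97 and 5.83 in the DMSO cultures (log2 fold change 1.82, SE 0.08, adjusted p = 2.07e-12), and Ccl2 (0.85), Ccl7 (0.99) and Cxcl14 (1.45) were also higher. The interferon-inducible Cxcl10 (-1.78) and Ccl5 (-0.65), the eosinophil attractant Ccl11 (-1.32), Cxcl12 (-1.19) and Cxcl15 (-2.80) were lower.

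Many proliferation genes fell. Of 43 mitosis and S phase genes, 28 were lower and none higher (median -0.77), and 41 of the 43 passed downward when no fold was asked. Their mean level was 9.53, 9.58 and 9.60 in TGFβ1 cultures and 10.34, 10.26 and 10.32 in DMSO cultures. Mki67 was at 9.93, 10.01 and 9.97 in the TGFβ1 cultures, against 11.38, 11.28 and 11.35 in the DMSO cultures (log2 fold change -1.37, SE 0.06, adjusted p = 7.73e-13), and the mitotic motors Kif23 (-1.33) and Kif11 (-1.32) fell by a like amount. Top2a (-0.99), Plk1 (-0.97) and the helicase subunit Mcm6 (-1.04) were lower. The early genes E2f1 (0.24) and Ccne1 (0.27) were not called. Of 20 G1 cyclins, CDK inhibitors and Myc genes, 6 were higher and 4 lower. Cdkn2b, already named, and Cdkn2a (0.94) rose, and Cdkn2c (-1.55) and Cdkn1b (-0.72) fell. Cdkn1c, the imprinted inhibitor p57, was at 9.48, 9.42 and 9.30 in the TGFβ1 cultures, against 12.08, 12.08 and 11.99 in the DMSO cultures (log2 fold change -2.65, SE 0.04, adjusted p = 3.34e-18), the largest fall of the 20 genes. Gadd45a (1.20), Gadd45g (1.28) and Mdm2 (0.82), genes of the damage response, rose, and Myc (0.49) and Ccnd1 (0.12) were not called.

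Growth factor genes changed in both directions. Of 45 factors and receptors, 12 were higher and 12 lower. Pdgfa (log2 fold change 1.28, SE 0.04, adjusted p = 3.76e-14), Pdgfc (1.15), Vegfa (0.98) and Fgf2 (0.75) rose, and Fgf7 (-1.19), Fgf10 (-1.88), Kitl (-1.41) and Vegfd (-1.40) fell. Fgfr2 was at 8.23, 8.42 and 8.28 in the TGFβ1 cultures, against 11.02, 11.06 and 11.05 in the DMSO cultures (log2 fold change -2.73, SE 0.05, adjusted p = 1.47e-17). Gas6, the ligand of the Axl family of receptors, was at 10.68, 10.81 and 10.92 in the TGFβ1 cultures, against 12.99, 12.98 and 13.05 in the DMSO cultures (log2 fold change -2.21, SE 0.05, adjusted p = 9.2e-17). Both genes were lower by more than 2 log2 units, and Axl itself was not called (0.17). In the insulin-like growth factor axis, 7 of 17 genes were lower and 2 higher. Igf1 was at 10.60, 10.66 and 10.64 in the TGFβ1 cultures, against 12.29, 12.32 and 12.35 in the DMSO cultures (log2 fold change -1.69, SE 0.04, adjusted p = 1.37e-15), and the binding proteins Igfbp4 (-2.81), Igfbp2 (-2.11), Igfbp5 (-2.01) and Igfbp3 (-1.11) fell. The protease that cuts Igfbp4, Pappa, rose (1.20), and its inhibitor stanniocalcin 1 (Stc1) was at 8.59, 8.45 and 8.59 in the TGFβ1 cultures, against 11.62, 11.48 and 11.48 in the DMSO cultures (log2 fold change -2.98, SE 0.05, adjusted p = 3.34e-18). Of 30 genes of angiotensin, endothelin and cyclic GMP signaling, 2 were higher and 6 lower, and angiotensin II receptors were among those that fell. Agtr2 was at 9.76, 10.13 and 10.37 in the TGFβ1 cultures, against 13.05, 12.99 and 13.03 in the DMSO cultures (log2 fold change -2.93, SE 0.11, adjusted p = 3.51e-13) and Agtr1a at 8.71, 8.76 and 8.77 in the TGFβ1 cultures, against 11.41, 11.45 and 11.38 in the DMSO cultures (log2 fold change -2.67, SE 0.07, adjusted p = 9.7e-16). The converting enzyme Ace (-1.97) and the adrenomedullin coreceptor Ramp2 (-2.24) were lower too.

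Most called genes of the stress and amino acid lists rose. Of 39 genes of the ATF4 and unfolded protein responses, 16 were higher and 1 lower (median 0.47), and of 15 genes of proline, serine and glutamine metabolism 7 were higher and none lower. Cth, which makes cysteine, was at 9.63, 9.71 and 9.67 in the TGFβ1 cultures, against 8.16, 8.20 and 8.24 in the DMSO cultures (log2 fold change 1.47, SE 0.06, adjusted p = 7.38e-13). Asns, asparagine synthetase, was at 13.20, 13.17 and 13.05 in the TGFβ1 cultures, against 11.99, 12.07 and 12.09 in the DMSO cultures (log2 fold change 1.09, SE 0.06, adjusted p = 1.4e-10). The stress regulators Nupr1 (1.33), Trib3 (1.15) and Ddit3 (1.14) and the serine and folate enzymes Psat1 (0.65), Psph (0.71) and Mthfd2 (0.97) rose. Of the endoplasmic reticulum chaperones, Sdf2l1 (1.24) and Hyou1 (0.78) rose and Hspa5 was not called (0.17). Slc1a5, a glutamine carrier, was the gene that fell (-1.43), and Atf4 itself was not called (0.44). Arg1, arginase, was at 8.12, 8.06 and 7.86 in the TGFβ1 cultures, against 6.37, 6.38 and 6.31 in the DMSO cultures (log2 fold change 1.66, SE 0.07, adjusted p = 1.59e-12). Of 27 genes of oxidative metabolism, 2 were higher and 1 lower (7.41% and 3.7%, near the 4.21% and 6.19% of all genes). Of 27 glycolysis and hypoxia genes, hexokinase 2 (Hk2, 1.52), Ero1a (1.10), Pkm (0.71) and Pgk1 were among 5 that rose, while the 2 that fell were Car9 (-2.21) and Ndrg1 (-1.40), both well-known hypoxia genes. Of 36 antioxidant genes, 5 were higher and 5 lower. The thioredoxin and glutathione reductases Txnrd1 (0.84) and Gsr (0.92) and Srxn1 (0.81) rose, and the glutathione transferases Gstt1 (-3.30), Gsta4 (-1.87) and Gstm1 (-1.38) fell. Of 29 genes for retinoids and foreign compounds, 2 were higher and 6 lower, with Adh1 at 7.85, 8.02 and 8.07 in the TGFβ1 cultures, against 11.50, 11.46 and 11.61 in the DMSO cultures (log2 fold change -3.54, SE 0.08, adjusted p = 1.66e-16) and Fmo1 at 7.49, 7.60 and 7.49 in the TGFβ1 cultures, against 10.77, 10.67 and 10.65 in the DMSO cultures (log2 fold change -3.17, SE 0.04, adjusted p = 7.66e-19), whereas the retinoic acid receptor Rarb was at 10.22, 10.13 and 10.00 in the TGFβ1 cultures, against 7.98, 7.90 and 7.82 in the DMSO cultures (log2 fold change 2.21, SE 0.06, adjusted p = 1.3e-15) and the carrier Crabp2 rose (1.68).

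Some regulators of tissue identity fell. Of 38 mesenchymal transcription factors, 13 were lower, 2 higher and 23 not called. Meox2 was at 8.82, 9.06 and 9.19 in the TGFβ1 cultures, against 11.83, 11.80 and 11.68 in the DMSO cultures (log2 fold change -2.75, SE 0.08, adjusted p = 1.5e-14), and Osr2 (-2.24), Foxp2 (-2.02), Ebf1 (-1.71), Prrx2 (-1.67) and Sox9 fell with it. Twist2 (0.76) and Runx1 (0.60) rose, and Twist1 (-0.44), Zeb1 (0.22) and Prrx1 (-0.24) were not called. Of 22 cardiac regulators, 7 were lower and none higher. The endogenous Mef2c was at 9.37, 9.39 and 9.44 in the TGFβ1 cultures, against 10.52, 10.46 and 10.43 in the DMSO cultures (log2 fold change -1.07, SE 0.07, adjusted p = 2.93e-10) and Tbx5 at 9.53, 9.52 and 9.53 in the TGFβ1 cultures, against 10.37, 10.33 and 10.48 in the DMSO cultures (log2 fold change -0.87, SE 0.07, adjusted p = 1.66e-08), while Gata4 (0.08), Hand2 (-0.28) and Nkx2-5 (0.09) were not called. Of 32 sarcomere and calcium genes, Ankrd1 and cardiac α-actin (Actc1, 0.81) rose and Tnnt2 fell (-0.61). These shares (6.25% and 3.12%) are near the 4.21% and 6.19% of all genes. Axon guidance molecules, which also steer mesenchyme, were lower for 16 of 35 and higher for 3, with Robo2 at 8.30, 8.19 and 8.22 in the TGFβ1 cultures, against 11.23, 11.24 and 11.14 in the DMSO cultures (log2 fold change -2.97, SE 0.05, adjusted p = 3.34e-18) and Epha4 at 8.44, 8.61 and 8.65 in the TGFβ1 cultures, against 10.71, 10.73 and 10.73 in the DMSO cultures (log2 fold change -2.16, SE 0.05, adjusted p = 1.39e-16). Of 31 cartilage, bone and tendon genes, 3 were higher and 8 lower. The tendon genes Tnmd (-2.68) and Kera fell, and osteoprotegerin (Tnfrsf11b) was at 11.13, 11.12 and 11.13 in the TGFβ1 cultures, against 8.90, 8.92 and 8.93 in the DMSO cultures (log2 fold change 2.21, SE 0.06, adjusted p = 9.01e-15).

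Further lists held changes in both directions. Of 26 immediate early genes, 5 were higher and 1 lower. The antiapoptotic Ier3 (1.47), the antiproliferative Btg2 (1.27) and the MAP kinase phosphatases Dusp1 (0.97) and Dusp6 (0.94) rose, the transcription factor Klf4 fell (-0.86), and Fos (0.05) and Egr1 (-0.37) were not called. Of 43 actin regulators, YAP targets and adhesion genes, 7 were higher and 9 lower. The adhesion molecule Mcam (1.81) and the G protein regulator Rgs16 (1.77) rose, and Rgs2 (-1.20), the cadherin Cdh6 (-1.25) and Cdc42ep3 (-1.65) fell. Of 32 ion channels and transporters, 8 were higher and 6 lower. Beside the channels given above, the amino acid carrier Slc38a1 rose (1.04), and Kcnd2, a potassium channel (-1.84), and Cacna1h, a T-type calcium channel (-1.18), fell. The water channel Aqp1 was at 7.82, 7.80 and 8.22 in the TGFβ1 cultures, against 11.05, 11.18 and 11.04 in the DMSO cultures (log2 fold change -3.14, SE 0.09, adjusted p = 7.25e-15).

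The array also holds probe sets for miRNA genes, which read the hairpin region of the primary transcript and not the mature miRNA. Of 272 miRNA genes matched by name to RefSeq (GRCm38.p6), 1 was higher (0.368%) and 9 were lower (3.31%). These shares lie below the 4.21% higher and 6.19% lower of all genes tested. The largest falls were those of Mir99a, at 6.53, 6.75 and 6.72 in the TGFβ1 cultures, against 9.37, 9.09 and 9.48 in the DMSO cultures (log2 fold change -2.65, SE 0.12, adjusted p = 3.82e-12), and of its neighbour Mirlet7c-1, at 5.67, 5.62 and 5.59 in the TGFβ1 cultures, against 7.40, 7.31 and 7.81 in the DMSO cultures (log2 fold change -1.88, SE 0.11, adjusted p = 1.3e-10). Both lie in the host transcript Mir99ahg on chromosome 16, which fell alongside them (7.10, 7.06 and 7.22 in the TGFβ1 cultures, against 9.71, 9.61 and 9.60 in the DMSO cultures, log2 fold change -2.52). The third miRNA gene of that host, Mir125b-2, was not called (-0.08). Mir365-1 (-1.33), Mir568 (-1.00) and Mir505 (-0.94) fell too. A mature sequence of each called gene, apart from Mir505 and Mir199b, is given 5′ to 3′ with the seed (bases 2 to 8) in capitals, since the seed decides which family a miRNA belongs to.
miR-99a-5p: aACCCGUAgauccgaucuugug
let-7c-5p: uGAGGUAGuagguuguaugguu
miR-181b-5p: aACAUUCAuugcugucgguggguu
miR-15a-5p: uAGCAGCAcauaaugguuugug
miR-365-3p: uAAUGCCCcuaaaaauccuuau
miR-568: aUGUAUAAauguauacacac
miR-199a-3p: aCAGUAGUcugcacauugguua
miR-125b-5p: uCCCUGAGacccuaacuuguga
Some genes that share a seed differed in whether they were called. miR-100-5p and miR-99b-5p carry the seed of miR-99a-5p, and their genes Mir100 (-0.29) and Mir99b (0.05) were not called. The signals of Mir100 (5.92, 6.00 and 5.97 in the TGFβ1 cultures, against 6.29, 6.14 and 6.31 in the DMSO cultures) and of Mir125b-2 (5.52, 5.59 and 5.49 in the TGFβ1 cultures, against 5.64, 5.60 and 5.59 in the DMSO cultures) were low in both groups, so a fall of these genes may not have been measurable. Of the let-7 genes with the shared seed, Mirlet7c-1 alone was called, and Mirlet7a-1 (-0.07), Mirlet7d (-0.38) and Mirlet7i (-0.12) were among those that were not. Mir181b-1 (-1.60) fell and Mir181b-2, a second gene for the same mature sequence, did not pass (-0.14). Mir15a (-1.59) fell and its close neighbour Mir16-1, which has the same seed, was not called (-0.12). Mean signals with TGFβ1 and with DMSO were 6.77 and 6.89 for Mir16-1 and 6.69 and 6.76 for Mirlet7a-1. These are near the 6.67 of Mir99a with TGFβ1, so a fall of Mir16-1 or Mirlet7a-1 may not have been measurable. Mir199a-1 (-0.96) and Mir199b (-0.90), which yield an identical 3p arm, both fell. Mir125b-1, which makes the same mature miR-125b-5p as Mir125b-2, was the gene that rose (0.74).

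SB, the receptor kinase inhibitor, was tested on 0TF cultures against the same DMSO cultures, so its values are set beside those of TGFβ1 with no test of likeness. With SB, 252 genes were higher and 226 lower (1.26% and 1.13%). For some genes the values lay on opposite sides of DMSO. Ccn2 stood at 13.71, 13.67 and 13.62 with TGFβ1, at 10.89, 10.72 and 10.75 with SB and at 12.64, 12.67 and 12.57 with DMSO. Lpl, the lipase that feeds fatty acids to adipocytes, stood at 8.32, 8.57 and 8.48 with TGFβ1, at 12.93, 13.06 and 12.92 with SB and at 11.71, 11.66 and 11.69 with DMSO. Pparg, the master regulator of fat cells, had log2 fold changes of -1.82 with TGFβ1 and 1.76 with SB. Skil (0.70 and -1.43), Ptgs2 (1.67 and -1.33) and Tnc (0.97 and -1.51) were higher with TGFβ1 and lower with SB. Other genes were below DMSO with both agents. Eln stood at 8.66, 8.69 and 8.54 with TGFβ1, at 10.86, 10.97 and 10.81 with SB and at 12.04, 12.27 and 12.19 with DMSO. Comp (-4.62 and -0.97), Fmod (-3.53 and -1.26) and Adamts3 (-2.86 and -1.99) showed the same pattern, and Has2 was higher with both (1.43 and 1.37). Of 36 adipocyte genes, 4 were higher and 3 lower with TGFβ1 (11.1% and 8.33%, against 4.21% and 6.19% of all genes). With SB, 22 of them were higher and none lower. The lipid droplet protein Plin2 was higher with TGFβ1 (1.30) and was not called with SB (0.40). The interferon genes, of which 31 fell with TGFβ1, gave 2 lower and none higher with SB, and the mitosis and S phase genes gave none in either direction.

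**Figure D4:**
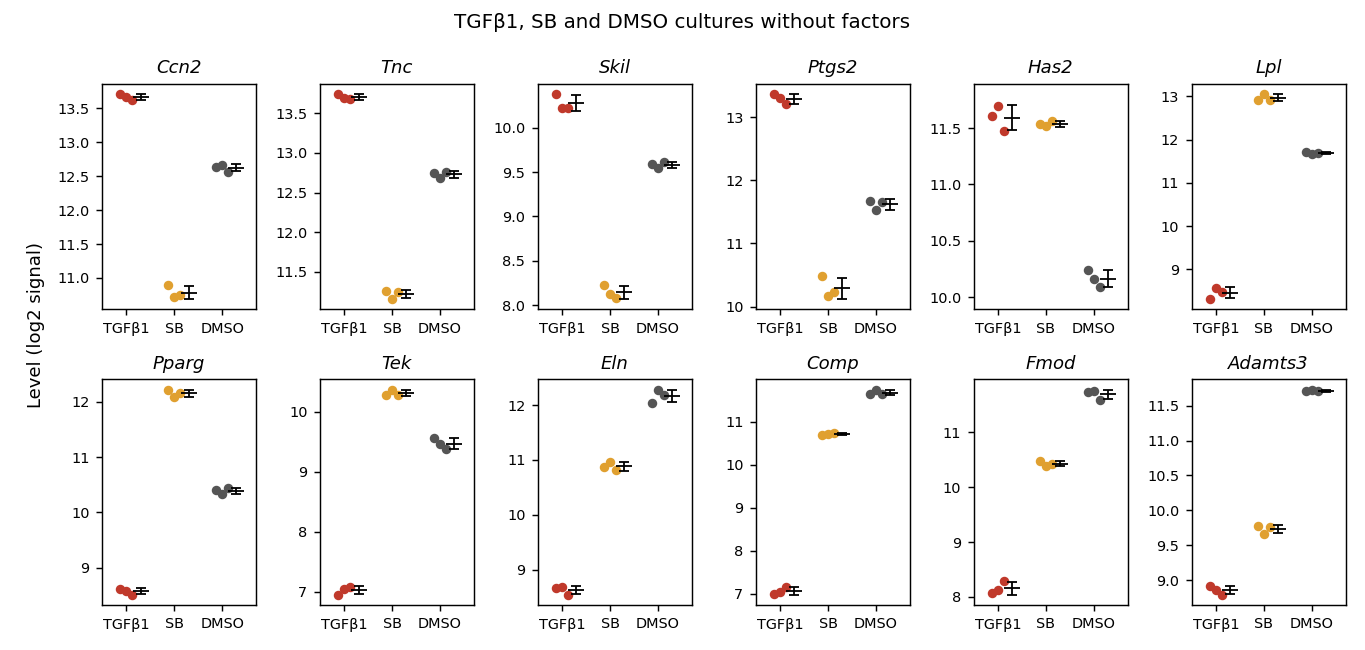
Level in each 0TF culture (log2 signal) of 12 genes with TGFβ1 (red), SB (orange) and DMSO (grey), 3 cultures each with the mean and SD beside them. Ccn2, Tnc, Skil and Ptgs2 lie above DMSO with TGFβ1 and below it with SB, Lpl, Pparg and Tek lie the other way, Has2 lies above DMSO with both, and Eln, Comp, Fmod and Adamts3 lie below it with both.

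The study selected 2 sets of genes from SB-treated cells that received HNGMT, and these were looked up in the TGFβ1 cultures without factors. The study also set HNGMT cultures with SB against 0TF cultures with SB, whose control is the 0TF + DMSO arrays, so the choice of the sets may not be independent of these DMSO arrays, while the 0TF + TGFβ1 arrays are not named in it. The study lists 19 genes as raised by SB in both MEFs and cardiac fibroblasts with HNGMT, and all 19 were measured. Of these, 12 were lower with TGFβ1 in 0TF cultures and none was higher (median -0.94). With SB in 0TF cultures, none of the 19 was called. The study drew them from genes raised by SB only with HNGMT, a choice that favours this. Lbp was at 7.21, 7.31 and 7.34 in the TGFβ1 cultures, against 11.51, 11.62 and 11.59 in the DMSO cultures (log2 fold change -4.29, SE 0.06, adjusted p = 4.83e-19), and Fmo1, Slfn5 (-3.88), Sp100 (-3.06), C1s1, Bmp2, Serping1 and the scavenger receptor Scara3 (-1.77) fell as well. The phospholamban gene Pln (-0.03) and the coactivator Ppargc1a (-0.45), which bear on calcium handling and mitochondria, were not called. Of 11 genes listed as lowered by SB in both cell types, Nupr1 and Angptl7 (0.82) were higher with TGFβ1 and Nrep (-0.94) was lower. Lox and Col5a2 (0.53) were among 8 not called. With SB in 0TF cultures, none of the 11 was called.

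TGFβ1 was also given to MEFs that expressed HNGMT, in cultures that share none with the 0TF comparison, and fewer genes were called there. With HNGMT, 444 genes were higher and 706 lower with TGFβ1 (2.23% and 3.54%). Of the 839 genes higher in 0TF cultures, 151 (18%) were also higher with HNGMT, which is 34.0% of the 444, and 5 were lower. Of the 1235 lower genes, 519 (42.0%) were also lower with HNGMT, which is 73.5% of the 706, and 8 were higher. The median log2 fold change of the 839 genes was 0.79 in 0TF and 0.32 in HNGMT cultures, and that of the 1235 genes was -0.99 and -0.47. The difference of the effects was tested across all genes in the same fit. The effect was more positive without factors for 552 genes and more negative for 934 (2.77% and 4.68%). Among the 839 genes that rose, 353 (42.1%) had an effect called larger without factors and 4 smaller, and among the 1235 that fell, 619 (50.1%) had an effect called larger and 38 smaller. These genes were chosen by their 0TF change, which favours a larger effect there, so the medians and these counts are a description.

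**Figure D5:**
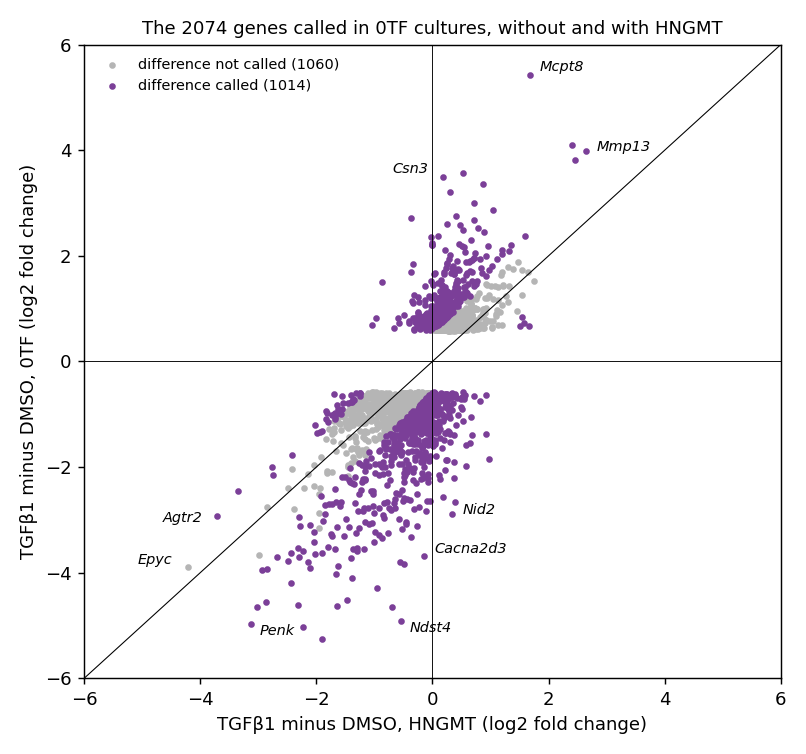
Log2 fold change of TGFβ1 against DMSO in 0TF cultures (vertical axis) and in HNGMT cultures (horizontal axis) for the 2074 genes called in 0TF cultures, purple where the difference of the effects was called and grey where it was not. Most purple points lie further from 0 on the vertical axis than on the horizontal one, and Epyc, Agtr2 and Mmp13 moved far in both.

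The genes named next had the most positive and most negative called differences and do not stand for all genes counted. Mcpt8 stood at 8.25, 8.22 and 8.48 with TGFβ1 and at 6.66, 6.48 and 6.74 with DMSO in HNGMT cultures, a log2 fold change of 1.69, and the effect in 0TF cultures exceeded it by 3.74 (SE 0.10, adjusted p = 1.82e-14). Csn3 was not called with HNGMT, at 6.09, 6.13 and 6.08 with TGFβ1 and 5.96, 5.94 and 5.86 with DMSO, and the effects differed by 3.32 (SE 0.08, adjusted p = 1.38e-14). Mmp3 was not called with HNGMT either (-0.37), and its effects differed by 3.09. For Ankrd1 the HNGMT cultures were already high without TGFβ1, at 12.95, 13.04 and 13.00 with TGFβ1 and 12.53, 12.66 and 12.60 with DMSO. Tfpi2, Scn7a, Kcnmb1, Fibin and A730049H05Rik were also among the 10 highest differences (3.04, 2.92, 2.49, 2.38 and 2.37), as was Fgl2 (2.59), which was not called in 0TF cultures (-0.16) and fell with HNGMT (-2.75). At the other end, Ndst4 stood at 6.14, 5.98 and 6.06 with TGFβ1 and at 6.53, 6.69 and 6.60 with DMSO in HNGMT cultures, was not called there, and its effects differed by -4.37 (SE 0.10, adjusted p = 1.07e-14). Cacna2d3 (-3.54), Apela (-3.25) and Trabd2b (-3.35) were not called with HNGMT, where their log2 fold changes were -0.15, -0.56 and -0.49. The signal of Cacna2d3 without TGFβ1 was 10.52, 10.59 and 10.61 in 0TF + DMSO cultures, against 6.96, 6.91 and 6.99 in HNGMT + DMSO cultures. That of Apela was 9.93, 9.85 and 9.87 in 0TF + DMSO cultures, against 6.61, 7.03 and 7.02 in HNGMT + DMSO cultures, so both were already low with HNGMT. Mme (-3.96), Egfl6 (-3.36), Lbp (-3.34) and Iigp1 (-3.06) fell less with HNGMT. Mean levels in 0TF + DMSO and HNGMT + DMSO cultures were 12.19 and 8.38 for Egfl6 and 11.57 and 8.23 for Lbp. They were 10.97 and 6.61 for Ndst4, 11.55 and 10.31 for Iigp1 and 12.60 and 11.45 for Mme. For Egfl6, Lbp and Ndst4 a fall with HNGMT as large as in 0TF cultures may thus not have been measurable. Nid2, a basement membrane protein, fell in 0TF cultures (-2.89) and was not called with HNGMT (0.33, difference -3.22). Scgb1a1, a secretoglobin of airway cells, was not called in 0TF cultures (5.93, 5.87 and 5.85 in the TGFβ1 cultures, against 5.85, 5.85 and 5.83 in the DMSO cultures) and rose with HNGMT (3.25, difference -3.21).

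The gene lists were counted in both settings. Over all genes, 839 were higher in 0TF and 444 in HNGMT cultures, and 1235 and 706 were lower. The difference was called for 2.77% of all genes in the positive and 4.68% in the negative direction. Of the contractile genes, 10 were higher in 0TF and 3 in HNGMT cultures, and the effect was called more positive without factors for 8 of 37 and more negative for 3. Their mean level was 10.84, 10.81 and 10.81 in 0TF + DMSO cultures, against 11.49, 11.50 and 11.47 in HNGMT + DMSO cultures. Of the direct targets, 13 were higher in 0TF and 1 in HNGMT cultures, with a more positive effect without factors for 11 of 32 and a more negative one for 2. Starting levels differed too. Mean levels in 0TF + DMSO and HNGMT + DMSO cultures were 12.62 and 13.27 for Ccn2, 7.88 and 9.69 for Edn1 and 11.39 and 11.10 for Angptl4. Whether the starting level bears on these counts was not tested. Of the ATF4 and unfolded protein genes, 16 were higher in 0TF and 2 in HNGMT cultures, with a more positive effect for 13 of 39 and a more negative one for 2. The small leucine-rich proteoglycans were lower in both settings, 10 of 15 in 0TF and 9 in HNGMT cultures, with the effect called more negative without factors for 4 and more positive for 2. The effects of Kera (-2.61), Prelp (-2.36) and Fmod (-2.23) were more negative without factors, and Epyc had log2 fold changes of -3.90 in 0TF and -4.21 in HNGMT cultures, a difference that was not called. The mitosis and S phase genes gave the opposite order, with 28 lower in 0TF and 38 in HNGMT cultures, and the effect was called less negative without factors for 9 of 43. The interferon genes were lower in both settings, 31 of 35 in 0TF and 25 in HNGMT cultures, with the effect called more negative without factors for 22. The mean of the interferon genes was 9.24, 9.70 and 8.99 in the HNGMT + TGFβ1 cultures and 10.39, 10.34 and 10.36 in the HNGMT + DMSO cultures.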

How the data were processed

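RNA was hybridised to Affymetrix Mouse Gene 1.0 ST arrays, 1 per culture. The log2 signals deposited by the authors were used as given. The methods and the labels name Microarray Suite 5.0 (MAS5) and the methods also PartekGS, while the settings of background correction, summarization and normalization are not given in the sources used here. The medians of the 18 MEF arrays lay between 7.83 and 7.91, and the number of arrays and the spread between cultures limit precision. Of 35556 probe sets, 21789 carried 1 gene symbol, 1621 several and 12146 none, by the platform annotation. Of probe sets with 1 symbol, that with the highest mean over all 27 arrays stood for its gene, which gave 19938 genes (999 had more than 1 probe set).

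A linear model with 1 coefficient for each of the 6 MEF groups was fitted to the 18 MEF arrays with limma (version 3.58.1, R 4.3.3) and moderated variances (12 residual degrees of freedom). TGFβ1 minus DMSO in 0TF cultures, the same contrast in HNGMT cultures, and their difference were tested, with Benjamini-Hochberg adjustment over all genes. A call needs an adjusted p under 0.05 and a fold of at least 1.5. The fit was tested on simulated data. Named genes were the 15 highest and 15 lowest called changes with cultures that did not overlap, the members of the gene lists, the 10 highest and 10 lowest called differences between 0TF and HNGMT cultures, and 2 gene sets of the study. The members and lists were chosen with earlier results of these data known. Promoters (250 bases before to 50 after the start) and miRNAs came from RefSeq tables of GRCm38.p6, in which 15614 genes had a promoter. Alternatives covered the arrays fitted, the variance model, array weights, dim genes, probe sets, normalization, thresholds, the replicate number and each left-out culture. CF arrays (cardiac fibroblasts) entered only the choice of probe set and 1 alternative.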

Additional observations from a re-analysis of the deposited data

Results flagged for a closer look

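The effect of TGFβ1 differed between 0TF and HNGMT cultures by a test of the difference itself (limma, adjusted p under 0.05 and a difference of at least 1.5-fold) for 552 genes in the positive and 934 in the negative direction, where a positive value means a more positive effect in 0TF cultures. The 10 most positive differences on the log2 scale were those of Mcpt8 (3.74), Csn3 (3.32), Mmp3 (3.09), Tfpi2 (3.04), Scn7a (2.92), Fgl2 (2.59), Kcnmb1 (2.49), Fibin (2.38), A730049H05Rik (2.37) and Ankrd1 (2.36). The 10 most negative were those of Ndst4 (-4.37), Mme (-3.96), Cacna2d3 (-3.54), Egfl6 (-3.36), Trabd2b (-3.35), Lbp (-3.34), Apela (-3.25), Nid2 (-3.22), Scgb1a1 (-3.21) and Iigp1 (-3.06). Fibin went in opposite directions, with a log2 fold change of 1.51 in 0TF and -0.87 in HNGMT cultures.

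Probe sets that stand for no single gene were counted as well. Of 12146 probe sets with no symbol, 128 were higher and 321 lower with TGFβ1 in 0TF cultures by the same rule. Of 1621 probe sets with several symbols, 20 were higher and 59 lower. In both kinds these are smaller shares than the 4.21% higher and 6.19% lower of all genes tested. This count was added after the data were seen, and the features behind these probe sets are not named here.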

How the results depend on the processing

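The counts of genes called with TGFβ1 in 0TF cultures moved with the fold asked for. They were 2319 higher and 2248 lower at a log2 fold change of at least 0.32, 236 and 609 at a fold of 2, 5488 and 3862 with no fold threshold, and 462 and 870 when limma tested against a fold of 1.5. With no fold threshold the difference between 0TF and HNGMT cultures was called for 3180 genes in the positive and 3068 in the negative direction. Leaving out 1 culture at a time gave 821 to 875 higher and 1204 to 1268 lower genes, and 511 to 616 and 887 to 1001 for the difference. Quantile normalization gave 908 higher and 1151 lower genes. Subtraction of each array's median gave 1039 and 1118, with 48.2% of calls higher against 40.5%, and moved the median of all genes to 0.10. The other choices gave 775 to 840 higher and 1131 to 1235 lower genes. Under alternatives other than the thresholds, named genes had 6736 values. No gene called in the main fit or in the alternative changed direction among them, and 30 values lost the call. Genes called in neither were not checked for direction. A culture decided the call of genes close to the fold threshold. Des stood at 0.55 without TGFβ1 replicate 1 and 0.56 without DMSO replicate 3. Itgb1 stood at 0.57 without TGFβ1 replicate 1, 0.58 without TGFβ1 replicate 2 and 0.57 without DMSO replicate 2. Mmp12 stood at 0.56 without TGFβ1 replicate 1 and 0.57 without TGFβ1 replicate 3. P4ha1 stood at 0.56 without TGFβ1 replicate 1 and 0.57 without DMSO replicate 2. Runx1 stood at 0.58 without TGFβ1 replicate 2, DMSO replicate 2 or DMSO replicate 3. Tnnt2 stood at -0.58 without TGFβ1 replicate 1, -0.56 without TGFβ1 replicate 3 and -0.57 without DMSO replicate 2. Ccl5 stood at -0.56 without DMSO replicate 2. With the mean of all probe sets of a gene, Top2a (-0.51), Dab2 (-0.56) and Irf1 (-0.46) fell short of the threshold, and in the fit of all 27 arrays Csrp2 (adjusted p = 0.0519) and Edn1 (adjusted p = 0.135) did. Subtraction of array medians left Snai2, Notch1 and Aspn at -0.58 and Tnnt2 at -0.56, short of the threshold, as quantile normalization left Ccl5 (-0.57), Itgb1 (0.55), P4ha1 (0.55), Pgk1 (0.56) and Tnnt2 (-0.53). Of 1768 counts of list members called under alternatives other than the thresholds, 15 moved by over 1.5 times. The labels number the replicates, but same-numbered TGFβ1 and DMSO cultures did not deviate together (correlations of -0.034, -0.017 and -0.03), so the numbers do not pair them. With the replicate block the counts were 839 and 1235, and 552 and 933 for the difference.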
